A study of Mus musculus with 2 samples.

Results

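Interferons are secreted proteins that warn cells of infection. Type I interferons bind the receptor Ifnar1/Ifnar2 and interferon-gamma binds Ifngr1/Ifngr2, and JAK kinases at these receptors then phosphorylate STAT proteins. Complexes that form downstream, one of which holds STAT2 and IRF9, bind the interferon-stimulated response element (ISRE) and the gamma-activated site (GAS) and switch on antiviral genes. In the testis, macrophages, Leydig cells, Sertoli cells and peritubular cells are known to respond to interferon.

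The 9 genes described here are Ifi27l2a, Ifit1, Ifit3, Isg15, Irf7, Ifitm3, Bst2, Irf1 and Oasl2, looked up by symbol among the 44002 rows of the authors' table of gene levels. They were selected on results of these same libraries, that is, with their CPM values and the difference between the libraries known, so their values below are a description and carry no test. The BPA library came from testes of BALB/c mice exposed to bisphenol A, a monomer of polycarbonate plastics known to act on estrogen receptors. The control library came from testes of BALB/c mice with no treatment in their labels. Both were taken at postnatal day 45, and in each group the material of 3 samples was mixed before poly(A) RNA was sequenced, so each group is 1 library with no replicate check. How much BPA was given, how and for how long is not stated in the labels used here.

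Levels are in CPM, that is, relative to the size of each library, and are called those of BPA testes and of control testes, 1 library each. From the spacing of the values, 1 read was worth 0.0220 CPM in the first and 0.0239 CPM in the second, which gives 45162887 and 41711330 listed reads. A fold is the ratio of CPM, and its exact 95% interval (Clopper-Pearson) covers counting error only. All 10 germ cell markers examined, among them the sperm chromatin gene Prm1 at 1762 CPM in BPA testes and 1463 CPM in control testes, were at 1 CPM or more, as were all 8 Leydig and all 10 Sertoli cell markers.

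Promoter sequence was read for 8 of the 9 genes from RefSeq windows on GRCm38.p6, from 250 bases before to 50 bases after a transcription start. The core of the ISRE, searched as GAAA, any 2 bases and GAAA again on both strands, was found for 5 of the 8 genes, against 3.99% of the 27025 genes with a window. The GAS, searched as TTCNNNGAA, which reads the same on both strands and was added after the data were seen, was found for 3 of the 8 genes, against 9.55% of all genes. The stretches below are shown because they hold these matches. Capitals mark the ISRE core, or in Irf1 the GAS, and each runs 5′ to 3′ on the strand of its gene.
Ifit1, plus strand, chr19:34640765-34640833: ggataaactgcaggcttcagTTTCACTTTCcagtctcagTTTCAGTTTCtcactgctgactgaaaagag
Ifit3, plus strand, chr19:34583353-34583436: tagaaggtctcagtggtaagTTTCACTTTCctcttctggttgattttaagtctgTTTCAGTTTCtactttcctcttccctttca
Isg15, minus strand, chr4:156200855-156200916: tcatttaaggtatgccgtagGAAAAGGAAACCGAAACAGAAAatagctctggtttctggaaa
Bst2, minus strand, chr8:71537567-71537622: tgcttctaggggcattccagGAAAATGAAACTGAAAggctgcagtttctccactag
Ifitm3, minus strand, chr7:141010716-141010742: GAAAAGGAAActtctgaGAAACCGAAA
Irf1, plus strand, chr11:53769904-53769952: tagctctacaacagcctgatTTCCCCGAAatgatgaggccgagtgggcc

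Ifit1 and Ifit3 each held the ISRE core in 2 places on the opposite strand, with the matches of Ifit1 beginning 104 and 85 bases before the start and those of Ifit3 156 and 122 bases before it. In Isg15 3 matches overlapped, beginning 78, 72 and 66 bases before the start, and in Bst2 2 overlapped, at 130 and 124 bases. A GAS match of Bst2, beginning 136 bases before the start, overlaps its first ISRE match. The 2 ISRE matches of Ifitm3 lie just after its start, with a GAS match overlapping the second. Irf1 held a GAS, beginning 90 bases before the first of its 2 annotated starts, and no ISRE core. Neither motif was found in the windows of Irf7 and Oasl2, which says only that these letters are not in those windows. Of 137 other interferon pathway genes with a window, 40.1% held the ISRE core and 23.4% the GAS.

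**Figure D1:**
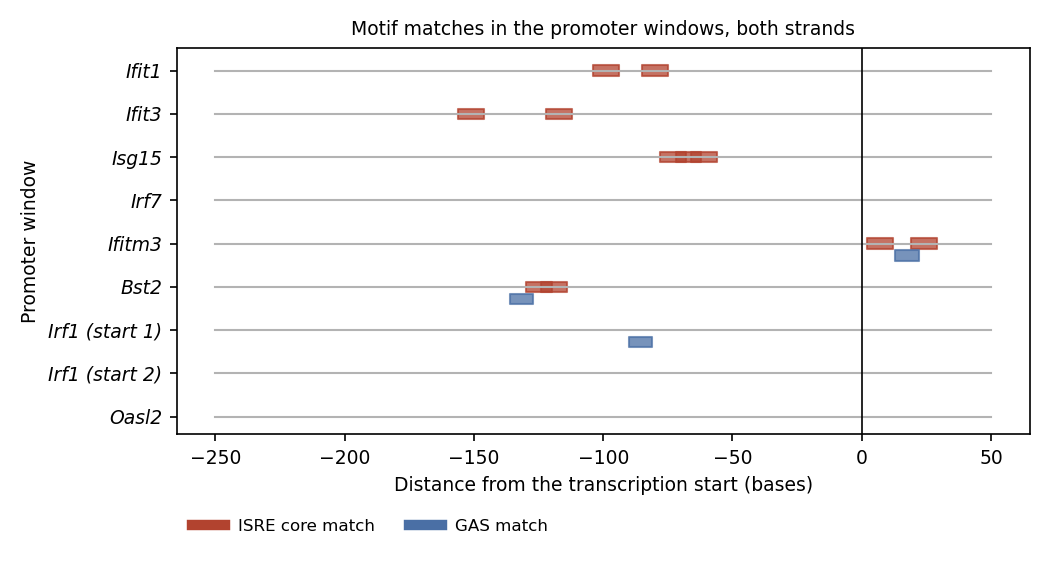
Position of the ISRE core matches (red) and GAS matches (blue) in the 9 promoter windows of 8 genes, drawn as distance in bases from the transcription start, which is the black line. Matches lie before the start in Ifit1, Ifit3, Isg15, Bst2 and Irf1 and after it in Ifitm3, and Irf7 and Oasl2 have none.

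Of the 9 genes, 8 had a level of 1 CPM or more in at least 1 library, and 7 of these 8 were lower in BPA testes than in control testes, by less than 2-fold except for Ifi27l2a. Isg15, a ubiquitin-like protein that is joined to other proteins (gene ID 100038882, chromosome 4, 156199424 to 156200818), has a row without any value, so its level was not analysed here. By the 2-fold rule, a log2 ratio of at least 1 in size after adding 0.1 CPM, 1 of the 8 was lower and 0 were higher in BPA testes. Among all 19389 genes that reached 1 CPM in either library, 1.95% were lower and 1.32% higher by that rule. A log2 ratio below 0 was found in 49.1% of all genes. The median log2 ratio was -0.40 for the 8 genes and 0.0041 for all genes. Since the genes were picked with these levels known, nothing further is read from these counts.

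The interferon-induced mitochondrial protein gene Ifi27l2a (76933, chromosome 12, 103433873 to 103443680) had 2.07 CPM (94 reads) in BPA testes and 4.57 CPM (191 reads) in control testes. It was 2.21-fold lower in BPA testes (1.71 to 2.85). The exact 95% Poisson intervals of the levels, 1.67 to 2.53 CPM in BPA testes and 3.94 to 5.27 CPM in control testes, did not overlap. How many of all genes have such intervals apart was not counted, here or for the genes below, so nothing is read from it. Among genes with a mean level from 1 to 4 CPM, 3.21% were 2-fold or more lower. With 1 CPM added in place of 0.1, its ratio was -0.86 on the log2 scale and it was no longer called. In bulk tissue, fewer cells of a type and less RNA per cell cannot be told apart.

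Irf7, the transcription factor that amplifies type I interferon production (54123, chromosome 7, 141263183 to 141266499), came next, with 2.27 CPM (103 reads) in BPA testes and 4.14 CPM (173 reads) in control testes. That is 1.82-fold lower (1.42 to 2.35), within the 2-fold rule, with Poisson intervals of 1.85 to 2.75 CPM in BPA testes and 3.54 to 4.803 CPM in control testes that did not overlap. Exons of Irf7 share 45 bases with Phrf1 on the opposite strand, and no strand-marking step is described. How reads from those bases were counted is therefore unknown. Irf1, a factor induced by interferon-gamma (16362, chromosome 11, 53770014 to 53778374), had 2.62 CPM (119 reads) in BPA testes and 3.33 CPM (139 reads) in control testes. Its interval, 0.612 to 1.01 times the control level, held 1, and 135 of its exon bases overlap Gm17334 on the opposite strand.

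Ifitm3 keeps viruses from fusing with endosomal membranes and also marks early germ cells (66141, chromosome 7, 141009590 to 141010744). Its level was 7.25 CPM (329 reads) in BPA testes and 10.3 CPM (430 reads) in control testes, 1.42-fold lower (1.23 to 1.64). The Poisson intervals, 6.49 to 8.08 CPM in BPA testes and 9.34 to 11.3 CPM in control testes, did not overlap, and 10.02% of its 50-base words also occur in genes at other loci, led by Gm7676. Bst2, or tetherin, holds budding virus at the cell surface (69550, chromosome 8, 71534255 to 71537472). It had 9.30 CPM (422 reads) in BPA testes and 10.1 CPM (424 reads) in control testes, and its interval, 0.799 to 1.05 times the control level, held 1.

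Oasl2, a member of the oligoadenylate synthetase family (23962, chromosome 5, 114896926 to 114912245), had 2.49 CPM (113 reads) in BPA testes and 3.47 CPM (145 reads) in control testes. It was 1.39-fold lower (1.08 to 1.80), while the Poisson intervals of its levels, 2.05 to 2.99 CPM in BPA testes and 2.93 to 4.08 CPM in control testes, overlapped slightly. In all, the interval of the fold lay below 1 for Ifi27l2a, Irf7, Ifitm3 and Oasl2, 4 of the 8, and above 1 for none. Over all genes 21.3% had an interval below 1 and 21.8% above 1.

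The IFIT proteins bind foreign RNA and hold back its translation, and the intervals of both their genes held 1. Ifit3 (15959, chromosome 19, 34583119 to 34588982) had 2.03 CPM (92 reads) in BPA testes and 2.08 CPM (87 reads) in control testes, a ratio of 0.974 (0.719 to 1.32). Its reads are uncertain, since 51.2% of its 50-base words also occur in the near-copy Ifit3b, which is listed at 0 in both libraries. Ifit1 (15957, chromosome 19, 34640889 to 34650009) was the only one of the 8 above the control level, with 1.12 CPM (51 reads) in BPA testes and 0.933 CPM (39 reads) in control testes, a ratio of 1.205 (0.778 to 1.88). Its control level is below 1 CPM, was listed as 0, and was recovered from the deposited fold change. The authors' deposited table gives each of the 8 genes a q-value of 0.99996, and its p-values run from 0.328 for Ifi27l2a to 0.981 for Ifit3.

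**Figure D2:**
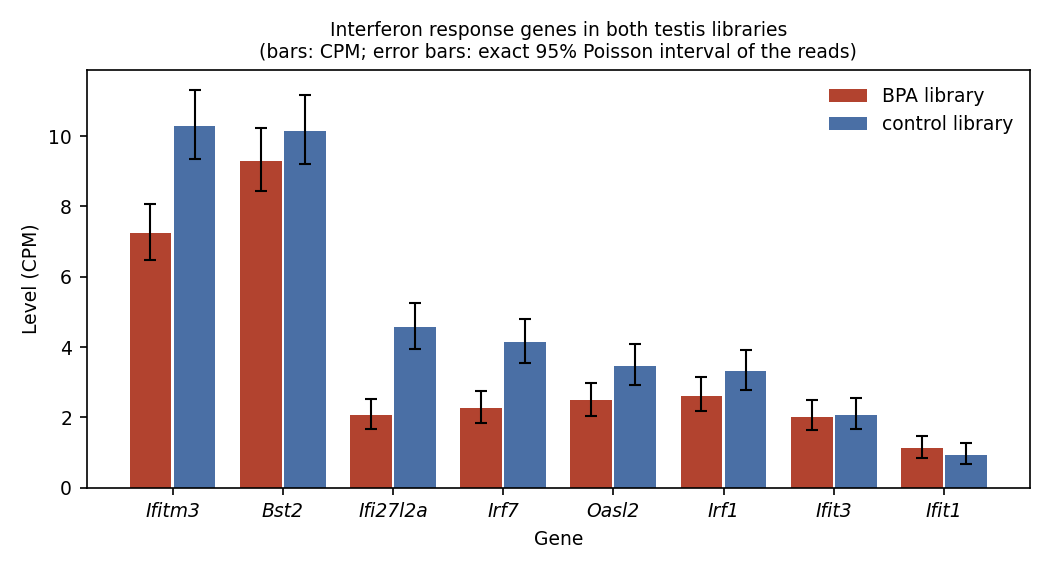
Level in CPM (y axis, from 0) of the 8 genes with a value (x axis) in BPA testes (red, left) and the control library (blue, right), 1 library each, with exact 95% Poisson intervals of the reads. The intervals are apart for Ifitm3, Ifi27l2a and Irf7 and overlap for the other 5 genes. The share of all genes with intervals apart was not counted.

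Per kilobase of merged GENCODE exons, which allows genes to be set against each other, Ifitm3, Bst2 and Ifi27l2a stood well above the rest. In the BPA library Ifitm3 had 10.7 CPM per kilobase and Bst2 10.3, with overlapping intervals, and Ifi27l2a had 4.47. Ifit3 followed at 1.16, Irf1 at 0.660, Irf7 at 0.601, Ifit1 at 0.423 and Oasl2 at 0.391 CPM per kilobase, and the intervals of Irf1 and Irf7, of Irf7 and Ifit1, and of Ifit1 and Oasl2 overlapped. In the control library the order was Ifitm3 with 15.2 CPM per kilobase, Bst2 with 11.2, Ifi27l2a with 9.87, Ifit3 with 1.19, Irf7 with 1.10, Irf1 with 0.836, Oasl2 with 0.544 and Ifit1 with 0.351. There Ifitm3 lay above Bst2 without overlap, while Bst2 and Ifi27l2a overlapped, as did each next pair from Ifit3 to Irf1 and the pair of Oasl2 and Ifit1. Irf7 and Irf1 therefore changed places between the libraries, as did Oasl2 and Ifit1, in both cases with intervals that overlapped in both libraries.

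Summed over the 8 genes, the level was 29.2 CPM (27.6 to 30.8, 1323 reads) in BPA testes and 38.9 CPM (37.1 to 40.9, 1628 reads) in control testes, a ratio of 0.749 (0.696 to 0.805). Bst2 and Ifitm3 made up most of either sum. Without both of them the ratio was 0.681 (0.610 to 0.759), and without Ifi27l2a it was 0.788 (0.729 to 0.851).

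The closest relatives of these genes did not all follow them. Ifi27, the neighbour and paralog of Ifi27l2a, had 19.97 CPM (906 reads) in BPA testes and 28.6 CPM (1194 reads) in control testes, 1.43-fold lower (1.31 to 1.56). Its RefSeq span lies inside that of Ifi27l2a, while their GENCODE exons share no base. Neither the exons used for counting nor the strand setting is given, so the levels of both genes carry that uncertainty. Whether reads of 1 gene were counted for the other was not tested. In the IFITM family, Ifitm2 had 13.3 CPM in BPA testes and 15.1 CPM in control testes, a ratio of 0.879 (0.785 to 0.984), and Ifitm7 had 28.8 CPM in BPA testes and 33.7 CPM in control testes, a ratio of 0.855 (0.792 to 0.922). Exons of Ifitm2 overlap Gm45717 on the same strand over 268 of 655 bases and 22.8% of its 50-base words occur elsewhere, so its level is uncertain, and exons of Ifitm7 share 259 bases with 2900011O08Rik on the opposite strand. Oasl1 had 1.65 CPM in BPA testes and 2.18 CPM in control testes, and its interval, 0.552 to 1.05, held 1. Ifit2, which lies in the same gene cluster as Ifit1 and Ifit3, went the other way, with 1.37 CPM (62 reads) in BPA testes and 0.694 CPM (29 reads) in control testes. Its ratio was 1.97 (1.25 to 3.18), just within the 2-fold rule. Of the other 18 relatives, 16 are listed at 0 in both libraries, among them Ifitm1, Oas1a, Oas2 and Oas3, and 2 carry no value. A listed 0 means under 1 CPM, and the housekeeping gene Gapdh is listed at 0 in both libraries as well.

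**Figure D3:**
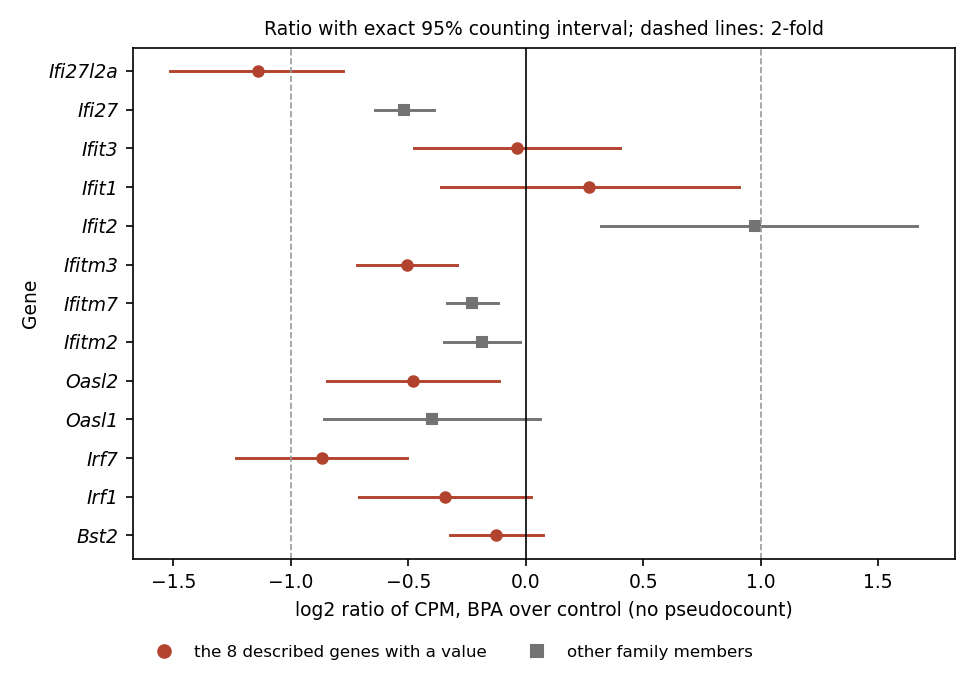
Log2 ratio of CPM, BPA over control, with its exact 95% counting interval for the 8 described genes (red circles) and 5 relatives at 1 CPM or more (grey squares), dashed lines marking 2-fold. Ifi27l2a alone lies past 2-fold, at 2.21-fold lower, and Ifit2 lies at the opposite end with a ratio of 1.97.

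No level can be given for any of the 21 interferon ligand genes examined, of which 5 are listed at 0 in both libraries and 16, among them Ifnb1 and Ifng, carry no value. Of their receptors 5 of 6 genes were at 1 CPM or more, and all 5 were within 2-fold. Ifnar1 had 24.4 CPM in BPA testes and 24.8 CPM in control testes, Ifnar2 6.59 CPM with BPA and 7.63 CPM in controls, Ifngr1 10.7 CPM with BPA and 10.4 CPM in controls, Il10rb 9.98 CPM with BPA and 8.44 CPM in controls, and Ifngr2 29.1 CPM with BPA and 22.8 CPM in controls, a ratio of 1.27 (1.17 to 1.39). The median log2 ratio of the receptors was 0.05.

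Among the JAK kinases, STATs and Irf9, all 6 genes were within 2-fold and the median log2 ratio was -0.07. Irf9 and Stat2, parts of the ISRE complex, were the lowest of them: Irf9 had 3.75 CPM in BPA testes and 4.95 CPM in control testes, a ratio of 0.757 (0.614 to 0.931), and Stat2 had 12.5 CPM with BPA against 15.0 CPM in controls, a ratio of 0.834 (0.743 to 0.936). Jak1 (48.2 CPM with BPA against 44.7 CPM in controls) and Jak2 (7.89 CPM with BPA against 7.22 CPM in controls) lay slightly above the control library. Of the 7 interferon regulatory factors other than Irf1 and Irf7, 0 were 2-fold apart and their median log2 ratio was -0.02. Irf3, which is activated directly by viral sensing, was level at 38.7 CPM in BPA testes and 39.4 CPM in control testes, Irf5 had 0.771 CPM with BPA against 1.196 CPM in controls and Irf4 1.499 CPM with BPA against 2.15 CPM in controls, and Irf8, a macrophage factor, had 11.6 CPM with BPA against 9.86 CPM in controls.

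Among sensors of viral nucleic acid, single genes differed in both directions. Of 16 at 1 CPM or more, 1 was higher and 1 lower, beside 1.32% and 1.95% of all genes. The median log2 ratio was 0.12. With 1 CPM added in place of 0.1, neither gene was called. Tlr3, the endosomal receptor for double-stranded RNA, had 1.45 CPM (66 reads) in BPA testes and 0.431 CPM (18 reads) in control testes, 3.38-fold higher (1.98 to 6.05). Ifih1, the cytosolic sensor MDA5, had 1.81 CPM with BPA against 0.933 CPM in controls, a ratio of 1.94 (1.31 to 2.91). Sting1 had 1.15 CPM with BPA against 0.813 CPM in controls, and its interval, 0.897 to 2.24, held 1. Zbp1, a sensor of Z-form nucleic acid, went the other way, with 0.353 CPM (16 reads) in BPA testes and 1.05 CPM (44 reads) in control testes, 2.99-fold lower (1.65 to 5.67). Tlr7, Tlr8, Tlr9 and Aim2 are listed at 0 in both libraries. Exons of Tlr3 overlap Gm45542 on the opposite strand. Among the other pathway genes named here, exons of Irf3, Irf5, Irf9, Oasl1, Jak1, Ifnar2 and Il10rb also overlap another gene. So do those of Slfn5, Gbp9, Herc6, Ptpn6, Tap2 and Tapbp. The annotation and strand setting used for counting are not given, so how reads from the shared bases were counted is unknown.

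The remaining effectors went both ways. Of 33 other interferon-stimulated effector genes at 1 CPM or more, 0 passed the 2-fold rule, 14 lay above 0 and 19 below, and the median log2 ratio was -0.04. The interval of the fold lay above 1 for 4 of them and below 1 for 8, against 21.8% and 21.3% of all genes. The galectin gene Lgals9 had 4.41 CPM in BPA testes and 7.10 CPM in control testes, a ratio of 0.620 (0.516 to 0.745), and Lgals3bp had 11.2 CPM with BPA against 18.3 CPM in controls, a ratio of 0.610 (0.544 to 0.683). Trim30a had 1.48 CPM (67 reads) in BPA testes and 0.694 CPM (29 reads) in control testes, a ratio of CPM of 2.13 (1.36 to 3.41) that misses the rule at a log2 ratio of 0.99 only through the 0.1 CPM added, and without it 3 pathway genes in place of 2 were higher. Slfn5 had 4.94 CPM with BPA against 3.28 CPM in controls. Rsad2, Ifi44 and 12 others are listed at 0 in both libraries. Of the 6 interferon-inducible GTPases and interferon-gamma targets at 1 CPM or more, 1 was lower, the GTPase gene Iigp1 with 1.34 CPM (61 reads) in BPA testes and 3.35 CPM (140 reads) in control testes, 2.49-fold lower (1.83 to 3.42). The list's median was -0.36, and it turned to 0.47 with no floor on low levels and the deposited fold changes. Gbp9 had 0.683 CPM with BPA against 1.03 CPM in controls, a ratio of 0.664 (0.405 to 1.08). Irgm1 had 0.771 CPM with BPA against 1.12 CPM in controls, a ratio of 0.686 (0.430 to 1.09). Gbp3 had 1.98 CPM with BPA against 1.58 CPM in controls, a ratio of 1.26 (0.904 to 1.75). The intervals of Gbp9, Irgm1 and Gbp3 thus held 1. In this list 18 further genes, among them Cxcl10 and Gbp2, are listed at 0 in both libraries.

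For Isg15 itself no level can be given, and Uba7, the enzyme that activates ISG15 for conjugation, and Usp18, the protease that removes it from proteins, are listed at 0 in both libraries. Ube2l6, which carries ISG15 to its targets, had 2.73 CPM in BPA testes and 2.11 CPM in control testes, and its interval, 0.980 to 1.73, held 1. The ligase gene Herc6 had 33.4 CPM with BPA against 24.2 CPM in controls, a ratio of 1.38 (1.28 to 1.498). The negative regulators held 8 genes at 1 CPM or more, 0 of them 2-fold apart, with a median of 0.01. The signalling inhibitor Socs3 had 2.09 CPM in BPA testes and 1.46 CPM in control testes, Socs1 4.19 CPM with BPA and 4.69 CPM in controls, Irf2 10.9 CPM with BPA and 8.71 CPM in controls, and Ptpn6 1.63 CPM with BPA and 1.39 CPM in controls. Antigen presentation by MHC class I, also an interferon target, was split. H2-D1 had 2.05 CPM (93 reads) in BPA testes and 4.31 CPM (180 reads) in control testes, 2.10-fold lower (1.63 to 2.73), and H2-K1 had 9.89 CPM with BPA against 16.2 CPM in controls. The peptide transporter gene Tap2 had 1.34 CPM (61 reads) in BPA testes and 0.622 CPM (26 reads) in control testes, 2.16-fold higher (1.35 to 3.56), and Tapbp had 4.23 CPM with BPA against 2.25 CPM in controls. The median of its 7 genes was 0.01. The call of Tap2 rests on the scaling, since scaling by a trimmed mean or a median of the ratios left it just within 2-fold. H2-D1 and H2-K1 have 12.8% and 9.63% of their words in genes elsewhere.

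**Figure D4:**
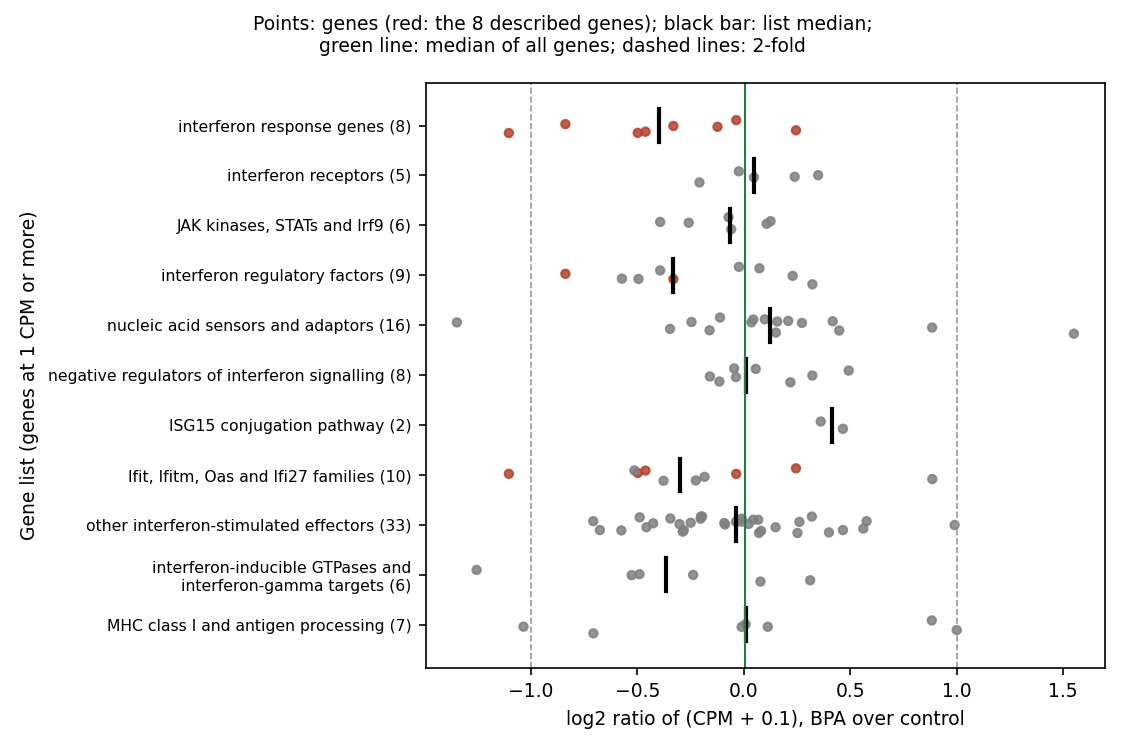
Log2 ratio of CPM plus 0.1, BPA over control, for the genes of each list at 1 CPM or more (points, with the 8 described genes in red), with each list's median (black bar), the median of all genes (green line) and the 2-fold lines (dashed). Lists are drawn with any described gene that belongs to them. The 8 described genes have a median of -0.40. Nearly as low are the GTPases and interferon-gamma targets at -0.36, the regulatory factors at -0.33 and the Ifit, Ifitm, Oas and Ifi27 families at -0.30. The last 2 of these lists hold described genes. The ISG15 conjugation pathway lies highest at 0.41, a median of only 2 genes, Ube2l6 and Herc6. The remaining lists have medians between -0.07 and 0.12.

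Over all these lists together, without the 9 genes, 92 genes were at 1 CPM or more: 2 were higher and 3 lower by the 2-fold rule, 44 lay above 0 and 48 below, and the median log2 ratio was -0.01. These shares lie near those of all genes in either direction.

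Markers of the cells that a testis sample can hold were also summed in each library, and no result above was tested against them. Macrophage markers, 13 of 15 at 1 CPM or more with Cd163 and Fcgr1 listed at 0, summed to 153 CPM in BPA testes and 128 CPM in control testes, a ratio of 1.19 (1.15 to 1.24). Aif1, at 20.4 CPM with BPA against 3.95 CPM in controls and 5.18-fold higher (4.38 to 6.15), made much of that difference, and without it the ratio was 1.07 (1.03 to 1.11). Among the others, Cd68 had 2.23 CPM in BPA testes and 2.99 CPM in control testes, and C1qc 14.4 CPM with BPA and 11.4 CPM in controls. Itgam had 1.37 CPM with BPA and 0.909 CPM in controls, and its interval, 0.988 to 2.31, held 1. Its level is uncertain, since 3450 of its 5024 exon bases overlap Gm49368 on the same strand. Of the T and NK cell markers 1 of 10 reached 1 CPM, Cd3d, with 11.2 CPM in BPA testes and 11.7 CPM in control testes, and Cd3e, Cd4 and Cd8a are listed at 0. No B cell or plasmacytoid dendritic cell marker reached 1 CPM (0 of 6), and of the neutrophil markers Mpo alone did (1 of 5), with 1.01 CPM with BPA against 1.58 CPM in controls.

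Of the cell types examined, adipocytes had the summed marker level that was lowest relative to the control library. All 9 were below the control level, 7 by 2-fold or more, and they summed to 27.4 CPM (25.9 to 28.9) in BPA testes and 88.9 CPM (86.1 to 91.8) in control testes, a ratio of 0.308 (0.288 to 0.328). The lipid carrier Fabp4 and the lipid droplet gene Cidec were 11.8-fold and 13.9-fold lower. Adipoq and Plin1 were within 2-fold and near the control level. Adipoq had 15.4 CPM in BPA testes and 17.2 CPM in control testes, a ratio of 0.896 (0.806 to 0.995). Plin1 had 4.47 CPM with BPA against 4.88 CPM in controls, a ratio of 0.917 (0.751 to 1.12). Any part of adipocytes in the lower interferon response genes was not tested. Endothelial markers, 11 of 12 at 1 CPM or more with Cldn5 listed at 0, summed to 78.0 CPM in BPA testes and 77.1 CPM in control testes, a ratio of 1.01 (0.964 to 1.06). Sertoli markers had a ratio of 1.14 (1.12 to 1.16), Leydig markers 1.07 (1.05 to 1.08), peritubular and smooth muscle markers 1.15 (1.10 to 1.21) and germ cell markers 1.07 (1.06 to 1.07), so none of these summed levels was lower in BPA testes. Among the Sertoli markers 1 gene went against its sum, Rhox8, with 1.43 CPM (65 reads) in BPA testes and 9.04 CPM (378 reads) in control testes, 6.31-fold lower (4.84 to 8.35). Among the Leydig markers Hsd3b1 did so, with a ratio of 0.783 (0.752 to 0.814). The 10 germ cell markers were split, with the interval above 1 for 4 and below 1 for 4, and their median log2 ratio was 0.01.

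**Figure D5:**
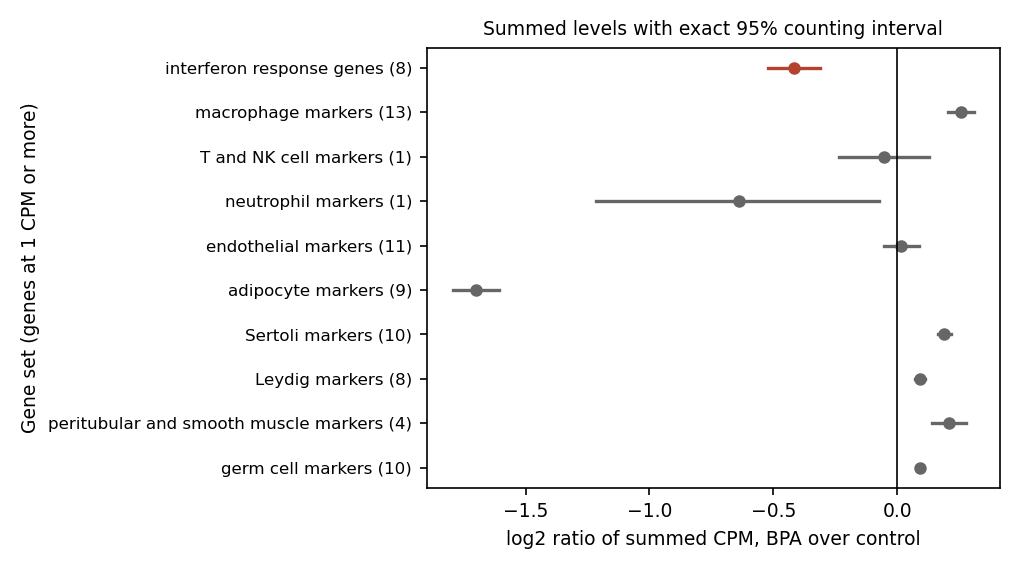
Log2 ratio of summed CPM, BPA over control, with exact 95% counting intervals, for the 8 described genes (red) and for the markers of each cell type at 1 CPM or more (grey, number of genes in brackets). The interferon response genes lie at a ratio of 0.749 and the adipocyte markers at 0.308, while macrophage, Sertoli, Leydig, peritubular and germ cell markers lie above 1.

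Genes within 1 Mb of each of the 9 genes were also read, beside the 1.32% of all genes that were higher and the 1.95% that were lower by the 2-fold rule. Around Ifi27l2a 29 neighbours were at 1 CPM or more, 2 of them higher, Prima1 and Gm7143, and 1 lower, Serpina1c. Irf7 and Ifitm3 share the lower pair Cyp2e1 (1.15 CPM in BPA testes, 2.70 CPM in control testes) and Pgghg (0.749 CPM with BPA, 1.77 CPM in controls), among 52 and 58 neighbours. Around Bst2 4 of 58 were higher, Pik3r2, Nxnl1, Mast3 and Iqcn, and 1 was lower, Arrdc2. The largest of these by level, Iqcn, had 52.9 CPM in BPA testes and 19.9 CPM in control testes, 2.66-fold higher (2.46 to 2.88). Irf1 had 1 lower neighbour among 22, the cytokine gene Il13 with 0.639 CPM (29 reads) with BPA against 1.58 CPM (66 reads) in controls, and Isg15 1 higher among 43, 5830444B04Rik. No neighbour was 2-fold apart around Ifit1 (11 genes), Ifit3 (12 genes) and Oasl2 (53 genes). The median log2 ratio of the neighbours lay between -0.06 around Ifi27l2a and 0.13 around Ifit3.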

How the data were processed

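The submitters' processing notes name HISAT2 2.0.4, HTSeq 0.6.1 and build mm10, and not the annotation, the strand setting, the scaling or the program that gave the p-values. The authors deposited a table with 1 value for each gene in each library, beside their log2 fold changes, p-values and q-values. The authors' headers call these values read counts, but they are CPM: their sums are 995266 (BPA) and 997834 (control), and all values are whole multiples of 1 step per library (0.0220 and 0.0239 CPM), taken as 1 read. Deposited CPM under 1 are written as 0, and 1404 of these were recovered from the deposited log2 fold change as whole reads within 0.01 read. A further 10618 rows hold no value. Symbols and positions came from RefSeq GRCm38.p6 (40269 of 41571 numeric gene IDs matched), exons and 50-base words shared between loci from GENCODE on GRCm38.

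Genes that reached 1 CPM in either library were set side by side as log2 ratios after adding 0.1 CPM, and a ratio of 2-fold or more was called. No count model was fitted, and no test between conditions was possible with 1 library per group. Intervals cover counting error only and hold no spread between animals or libraries, since each group is 1 library. They can be too narrow even for counting error, since PCR copies are not independent molecules. Genes named besides the 9 are all relatives at 1 CPM or more, up to 4 genes per list with the largest log2 ratios, and every 2-fold neighbour within 1 Mb; others were added for their role, after their values were seen. The genes and lists were chosen with earlier results of these data known. Scripts ran in Python 3.11.15 with scipy 1.17.1 and were tested on simulated reads. Alternatives covered the scaling, pseudocount, floor, size rule, handling of listed zeros and the genes summed.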

Additional observations from a re-analysis of the deposited data

How the results depend on the processing

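No paired analysis was possible because each group has 1 library, and no replicate could be left out for the same reason. Of the log2 ratios of the 8 genes under other settings, 59 of 60 stayed within their counting interval. The exception was Ifit1, at 3.61 with listed zeros taken as 0, which that setting makes by construction. Most of these settings could hardly move a ratio, so the count is no measure of robustness. The scaling factors were 0.997 to 1.003, a floor leaves the ratio of a kept gene as it is, and listed zeros concern only Ifit1 here. The trimmed mean of log ratios was computed without edgeR.

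Among the 8 genes, 0 were lower with a pseudocount of 1 CPM or on the nearer interval bound, 2 with a 1.5-fold rule, and 1 was higher with listed zeros as 0. The ratio of their summed level was 0.689 without Bst2 and 0.681 without Bst2 and Ifitm3, the last chosen after seeing the data. Over all genes, 256 were higher and 379 lower. A pseudocount of 1 CPM gave 82 and 123, a floor of 4 CPM 80 and 103, no floor 1938 and 2582, zeros kept as listed 686 and 937, a 1.5-fold rule 828 and 1042, and the nearer interval bound 100 and 162. Among the other pathway genes, 2 were higher and 3 lower. A pseudocount of 1 CPM or the nearer bound gave 0 and 0, the 4 CPM floor 0 and 1, no floor 16 and 17, zeros kept as listed 7 and 8, and the 1.5-fold rule 6 and 6. Scaling by the trimmed mean or the median of ratios left 1 higher. The median log2 ratio of the GTPases and interferon-gamma targets, -0.36, was 0.47 with no floor, and that of all 9 interferon regulatory factors, -0.33, was 0.02 with the 4 CPM floor. An exact binomial test of the reads called 34.8% of all genes before the 2-fold rule, and it compares the libraries, not the conditions. The cause of these shifts was not tested beyond what each setting itself changes.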
